A study of Mus musculus with 8 samples.

Results

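A set of 10 genes that mark club cells and other secretory cells of the airway lining were followed in lung neutrophil preparations. They were chosen by name and comprised Scgb1a1, Scgb3a1, Scgb3a2, Aldh1a1, Bpifa1, Bpifb1, Cbr2, Gsta3, Pigr and Reg3g. Of the 10 genes, 9 had a matched row, 1 row each, among the 24625 rows of the array table. Scgb3a2 had no matched row and is not described further. All mice were wild type, aged 6 to 12 weeks per the labels, and carried no transgene or deletion. One group received Streptococcus pneumoniae (SP), a Gram-positive bacterium that causes pneumonia, at 2.3 µl of suspension per g of body weight into the left lung. The other group received the same volume of phosphate-buffered saline (PBS). Cells were taken 24 h later from digested lungs of both groups with magnetic beads that bind Ly6G, which mouse neutrophils carry on their surface. The bead fraction of each sample was hybridised to 1 Affymetrix Mouse Gene 1.1 ST array (4 PBS and 4 SP arrays). Precision is limited by this number of arrays. The labels do not say how many mice stand behind a sample, while the paper describes each sample as coming from a mouse. P-values measure the spread between these samples, with a limit for the relative comparisons that is given there.

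Club cells are dome-shaped secretory cells that line the small airways. They release secretoglobins, small proteins that are among the most abundant in airway fluid, and they carry enzymes that break down inhaled and blood-borne chemicals. Together with mucus-producing goblet cells they also secrete antibacterial proteins and carry antibodies across the epithelium. They are known as progenitors that renew the airway lining after injury. Neutrophils are not known as a source of secretoglobins.

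Values are log2 expression after robust multi-array averaging, on which a difference of 1 unit is 2-fold. Array medians lay between 6.06 and 6.20 in PBS and between 5.78 and 5.91 in SP. The neutrophil list (S100a8, S100a9, Csf3r, Cxcr2, Retnlg, Mmp9, Mmp8, Itgam and Fpr1) had a mean level of 12.72 to 13.06 on the PBS arrays and 12.45 to 13.02 on the SP arrays. Defining neutrophil markers were therefore bright in both groups. The general epithelial list, whose genes neutrophils are not known for, had a mean of 10.51 to 10.99 in PBS and 8.22 to 9.24 in SP.

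Of the 9 secretory genes, 7 were lower in SP at an adjusted p of 0.05 or less (limma), and none was higher. For comparison, 22.6% of all rows were lower and 21.5% were higher. The genes that fell were both secretoglobins, the enzymes Cbr2, Aldh1a1 and Gsta3, and both BPI-fold proteins, with differences between -0.63 and -2.84. Reg3g and Pigr did not pass the test. The fall was at least 2-fold for 6 of the 9 genes, against 11.3% of all rows lower and 6.37% higher by that much. On 7 of the 9 genes every SP array lay below every PBS array, as on 21.8% of all rows, while on 27.2% every SP array lay above every PBS array. The median difference of the 9 genes was -1.95, beside 0.10 over all rows. Values are relative within an array. In a bulk sample, fewer cells of a type, a smaller share of them in the bead fraction and less RNA per cell cannot be told apart. This holds for each result that follows, also where a gene is said to have fallen.

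**Figure D1:**
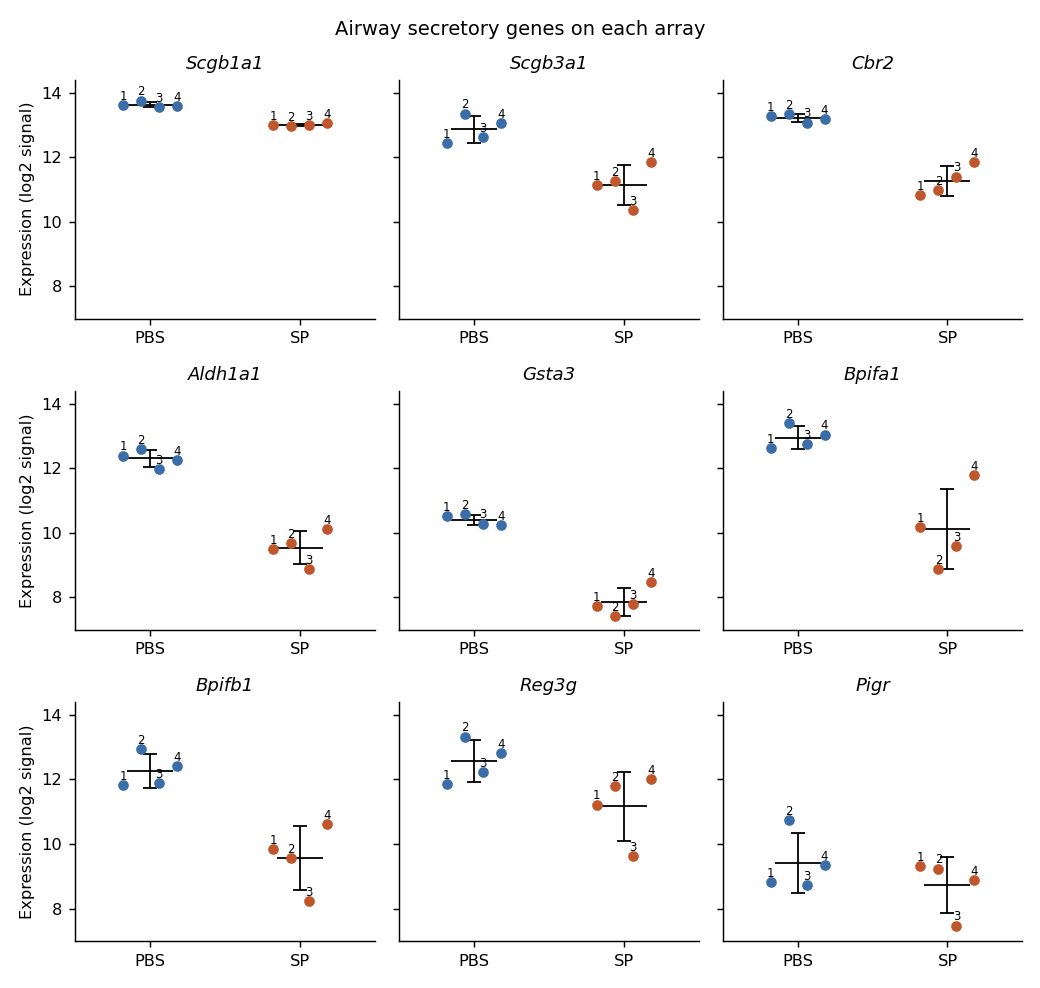
Log2 expression (vertical axis) of the 9 secretory genes on each of the 4 PBS and 4 SP arrays, with a point per array numbered by replicate, a line at each group's mean and error bars of 1 SD. The groups are apart for 7 genes, from Scgb1a1, where the SP arrays lie between 12.958 and 13.045, to Bpifa1, where they spread from 8.87 to 11.80, and they overlap for Reg3g and Pigr.

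The sequences before the start of the genes are shown for reference, since the members fell by unequal amounts. The RefSeq promoter table (GRCm38.p6) held a window for 6 of the 10 genes: Scgb3a1, Aldh1a1, Bpifa1, Bpifb1, Pigr and Reg3g. The 250 bases before the annotated start are printed for 1 secretoglobin that fell, 1 BPI-fold gene that fell further and the lectin gene that did not pass the test. Capitals mark the motif letters found.
Scgb3a1, chr11:49663345-49663594, plus strand: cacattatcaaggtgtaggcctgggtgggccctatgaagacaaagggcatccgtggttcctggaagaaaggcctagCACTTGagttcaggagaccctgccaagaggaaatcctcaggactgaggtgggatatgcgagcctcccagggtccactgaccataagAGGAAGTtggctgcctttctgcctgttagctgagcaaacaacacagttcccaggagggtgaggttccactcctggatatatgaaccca
Bpifa1, chr2:154142630-154142879, plus strand: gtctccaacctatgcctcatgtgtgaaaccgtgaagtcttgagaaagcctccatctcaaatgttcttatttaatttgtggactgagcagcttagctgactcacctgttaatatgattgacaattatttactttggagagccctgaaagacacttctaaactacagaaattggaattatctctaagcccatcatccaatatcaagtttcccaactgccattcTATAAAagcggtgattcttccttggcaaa
Reg3g, chr6:78468875-78469124, minus strand: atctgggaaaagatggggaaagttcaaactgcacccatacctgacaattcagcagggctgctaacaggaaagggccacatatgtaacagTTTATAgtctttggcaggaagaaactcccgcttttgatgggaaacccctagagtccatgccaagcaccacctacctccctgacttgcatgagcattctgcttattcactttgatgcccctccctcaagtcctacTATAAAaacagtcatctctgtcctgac
The letters TATAAA of a TATA box, searched on both strands like every motif here, stood at -29 to -24 from the start in Bpifa1 and at -161 to -156 and -27 to -22 in Reg3g. These were 2 of the 6 genes, and 12.4% of all 32851 windows of that length held the letters. In Scgb3a1 the capitals are the ETS letters AGGAAGT at -88 to -82, present in 7.69% of windows, and the NKX2 letters CAAGTG, read on the other strand, at -174 to -169, present in 11.6%. The C/EBP letters TTGCNNAA, present in 9.56% of windows, stood in Aldh1a1 alone among the 6. The FOXA letters TGTTTAC (3.17% of windows) stood in none of the 6. A match describes letters, not a bound site, and its absence says only that these letters are not in this window. Bpifa1 and Bpifb1 lie in the same orientation on chromosome 2, with starts at the ends of windows chr2:154142630-154142879 and chr2:154190568-154190817.

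Scgb1a1 encodes the club cell secretory protein, the defining product of these cells. It read 13.62, 13.75, 13.55 and 13.60 on PBS arrays 1 to 4 and 12.990, 12.958, 12.996 and 13.045 on SP arrays 1 to 4. The groups were far apart relative to their spread, and no other member varied so little within a group. The mean fell from 13.63 ± 0.09 to 12.998 ± 0.036 (SD, n = 4 each), a difference of -0.63 (SE 0.071) with an adjusted p of 0.000231 in limma. This was 1.55-fold, the least of the 7 called genes. The brightest row of each array lay between 13.95 and 14.45, close above Scgb1a1, and whether its difference was compressed by the top of the scale was not tested. Cbr2 and Cyp2f2, at 13.22 and 13.14 in PBS, were also near the top of the scale there and differed by -1.95 and -2.63 log2 units. In SP they read 11.27 and 10.50, further from the top, while Scgb1a1 stayed near it in both groups. These 2 genes therefore cannot decide that question. With each array centred on its own median, every difference moved up by 0.28, and that of Scgb1a1 became -0.35 with an adjusted p of 0.00653.

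Scgb3a1 is a secretoglobin of the larger airways. Its levels were 12.43, 13.35, 12.62 and 13.07 in PBS and 11.14, 11.25, 10.36 and 11.85 in SP. Every SP array was below every PBS array, but the SP arrays differed by more than 1 log2 unit among themselves, with replicate 3 low and replicate 4 high. The mean fell from 12.87 ± 0.42 to 11.15 ± 0.62, a difference of -1.72 (SE 0.32, 3.29-fold, adjusted p = 0.00327, limma). Of 4 other secretoglobin genes with a row, Scgb1c1 fell by 1.89 log2 units, while Scgb1b2, Scgb1b27 and Scgb2b2 were dim, at 4.71 to 5.26 in PBS, with differences of 0.26, 0.24 and 0.49, of which those of Scgb1b2 and Scgb2b2 were called higher (adjusted p = 0.0245 and 0.00557, limma).

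Cbr2 encodes a carbonyl reductase of lung epithelium that clears aldehydes and ketones. It read 13.27, 13.34, 13.07 and 13.18 in PBS and 10.83, 10.99, 11.40 and 11.86 in SP. The PBS arrays were tightly grouped and the SP arrays lay well below them. The difference was -1.95 log2 units (SE 0.21, 3.85-fold, adjusted p = 0.000185, limma).

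Aldh1a1, which oxidises retinaldehyde to retinoic acid and other aldehydes to acids, read 12.40, 12.60, 11.99 and 12.26 in PBS and 9.50, 9.68, 8.89 and 10.11 in SP. The groups were separated by more than the spread within either. The difference was -2.77 log2 units (SE 0.25, 6.80-fold, adjusted p = 7.6e-05, limma). Gsta3, a glutathione S-transferase of the alpha class that conjugates glutathione to reactive compounds, read 10.52, 10.57, 10.29 and 10.24 in PBS and 7.74, 7.43, 7.80 and 8.48 in SP. It too was lower on each SP array, with a mean difference of -2.54 (SE 0.21, 5.83-fold, adjusted p = 5e-05, limma). Among named relatives of these enzymes, Aldh1a7, a close paralogue of Aldh1a1, differed by -3.01, Aldh1a2, another retinaldehyde dehydrogenase, by -3.33, Cbr1 by -2.23, Cbr3 by -1.75 and Gsta4 by -2.39 log2 units, each called lower. Aldh1a3 and Aldh1b1, dim in PBS at 4.45 and 4.57, were called higher, by 0.75 and 0.50. Over the 29 measured relatives of all the secretory genes, 8 were lower and 4 higher, with a median of 0.12, where 22.6% of all rows were lower and 21.5% higher. How far probes of Aldh1a1 and Aldh1a7 read each other's transcript was not tested.

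Bpifa1 and Bpifb1 encode BPI-fold proteins, secreted onto the airway surface, of which Bpifa1 is known for antibacterial action and for restraining the epithelial sodium channel. Bpifa1 read 12.62, 13.39, 12.76 and 13.04 in PBS and 10.18, 8.87, 9.59 and 11.80 in SP. The groups did not overlap, yet the SP arrays spanned almost 3 log2 units, the widest spread among the 9 genes, with replicate 4 high and replicate 2 low. Bpifa1 had the largest mean difference of the 9, -2.84 (SE 0.55, 95% interval -4.10 to -1.57, 7.15-fold, adjusted p = 0.0039, limma). Bpifb1 read 11.82, 12.93, 11.89 and 12.41 in PBS and 9.86, 9.57, 8.23 and 10.62 in SP. The difference was -2.69 (SE 0.48, 6.47-fold, adjusted p = 0.00255, limma), with its lowest SP value in replicate 3 and not in replicate 2. Scnn1b and Scnn1g, which encode subunits of the epithelial sodium channel, fell as well, with differences of -3.16 and -2.93.

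Reg3g encodes a C-type lectin that kills Gram-positive bacteria. It read 11.85, 13.33, 12.24 and 12.82 in PBS and 11.22, 11.81, 9.63 and 12.01 in SP. SP replicate 4 was above PBS replicate 1, so the groups overlapped, and SP replicate 3 stood below the other SP arrays. The difference was -1.39 (SE 0.54, 95% interval -2.62 to -0.16 before adjustment) with an adjusted p of 0.0644 in limma. Over the alternatives run it ranged from -1.67 to -0.62 with adjusted p between 0.0267 and 0.146, and without both PBS replicate 2 and SP replicate 3 it was -0.62. The related lectin genes Reg3a, Reg3b and Reg3d were dim in both groups and were not called.

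Pigr encodes the polymeric immunoglobulin receptor, which carries IgA and IgM through epithelial cells into the airway. It read 8.82, 10.73, 8.74 and 9.34 in PBS and 9.31, 9.24, 7.47 and 8.88 in SP. Of the SP arrays 3 lay within the PBS range, and the low SP replicate 3 and the high PBS replicate 2 stood apart from the rest. The difference of -0.68 (95% interval -1.91 to 0.55, adjusted p = 0.306, limma) spans 0, so neither a lower nor a higher level is shown. Without those 2 arrays it was 0.18 with an adjusted p of 0.472.

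The next comparison asked whether the secretory genes changed by the same amount as other epithelial genes on the same arrays. A list of 13 measured ciliated cell genes, which belong to the other main cell of the airway lining, had 12 genes lower in SP. The median difference of the list was -2.69, and 22.6% of all rows were lower as measured. The mean of this list ran from 8.36 to 9.17 in PBS and from 6.02 to 6.58 in SP. The SP array medians, 5.78 to 5.91, lay close below it. Whether the low end of the scale shortened the fall of this reference was not tested. Such a limit would enter each value relative to the ciliated mean. With this mean subtracted on each array, 4 of the 9 genes were higher in SP and none was lower (limma), while 96.4% of all rows were higher and 0.512% lower on that scale. The share of the secretory genes that rose against the ciliated mean was thus below that of all rows. Scgb1a1 moved up by 1.76 relative to the ciliated mean (95% interval from its own 8 values 1.33 to 2.20), Pigr by 1.72 (0.63 to 2.80), Reg3g by 1.01 (-0.18 to 2.19) and Scgb3a1 by 0.68 (0.03 to 1.34). The reference is shared by all rows, which draws limma's intervals toward a common width. They were wider than the own-value intervals for Scgb1a1 (1.25 to 2.28) and narrower for Reg3g (0.39 to 1.62). Intervals from a gene's own values are therefore given here. By the methods' t-test Reg3g was not called (adjusted p = 0.0865). Scgb1a1 and Scgb3a1 had no overlap between groups on this scale, with an exact permutation p of 0.0286 each, two-sided and unadjusted, the smallest that 4 against 4 allows. For Pigr the exact permutation p was 0.0571 and for Reg3g 0.114. Scgb3a1 was not called without PBS replicate 1 (0.57, adjusted p = 0.0819) or without SP replicate 4 (0.46, adjusted p = 0.128, limma).

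The other 5 genes were not called against the ciliated mean. Their differences were 0.45 for Cbr2 (-0.33 to 1.23), -0.37 for Aldh1a1 (-0.86 to 0.12), -0.44 for Bpifa1 (-2.03 to 1.15), -0.30 for Bpifb1 (-1.38 to 0.79) and -0.15 for Gsta3 (-0.90 to 0.60). These intervals are wide, those of the BPI-fold genes most of all, and do not show that the genes fell as the ciliated genes did. Without SP replicate 4, Bpifa1 at -0.99 and Bpifb1 at -0.64 were called lower (adjusted p = 0.00291 and 0.0451, limma). Cbr2 was called higher without SP replicate 2 (0.62, adjusted p = 0.0412) and with the list's median as reference (0.79, adjusted p = 0.00721).

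Alveolar type 2 cells, which make surfactant, gave another reference. Of their 10 listed genes 8 were lower in SP as measured, against 22.6% of all rows, with a median difference of -1.15. The list mean ran from 11.53 to 12.10 in PBS and from 9.76 to 11.09 in SP. Relative to that mean, 4 of the 9 secretory genes were lower in SP and none was higher (limma), where 3.02% of all rows were lower and 78.6% higher. They were Bpifa1 (-1.60, 95% interval from its own values -2.70 to -0.51), Aldh1a1 (-1.53, -1.91 to -1.15), Bpifb1 (-1.46, -2.15 to -0.76) and Gsta3 (-1.31, -1.90 to -0.71). The groups of these 4 genes did not overlap on that scale, each with an exact permutation p of 0.0286. Scgb1a1 was 0.60 (-0.11 to 1.32), Cbr2 -0.71 (-1.51 to 0.09), Scgb3a1 -0.48 (-0.95 to -0.009), Reg3g -0.16 (-1.20 to 0.89) and Pigr 0.55 (-0.57 to 1.67). None of the 5 was called by limma. On this scale limma gave all 9 genes the same SE, 0.36. Its calls therefore follow the size of a difference and not the spread of each gene. The reference is shared by all rows in the fits without an array too. The interval of Scgb3a1 from its own values lay wholly on the negative side, with an exact permutation p of 0.0571. Without SP replicate 4 the called genes numbered 7, with Cbr2 added as lower (-0.70, adjusted p = 0.0496) and Scgb1a1 and Pigr as higher (0.80 and 0.71, adjusted p = 0.0238 and 0.0437, limma). Cbr2 was also called lower, and Pigr higher, without PBS replicate 2 (-0.80 and 0.86) and without SP replicate 3 (-0.99 and 0.74). With the list's median as reference, Scgb3a1 (-1.10) and Cbr2 (-1.33) were called lower.

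Against Scgb1a1 itself the differences between members were direct. On this scale 6 of the other 8 genes were lower in SP and none was higher (limma), where 9.95% of all rows were lower and 71.6% higher. Scgb1a1 had the difference nearest to 0 of all members, -0.63, so none of the others could be higher against it. It also varied little within a group, so these values largely repeat the differences as measured and are not a separate test. Bpifa1 differed by -2.21 from Scgb1a1, Aldh1a1 by -2.13, Bpifb1 by -2.06, Gsta3 by -1.91, Cbr2 by -1.31 and Scgb3a1 by -1.08, with adjusted p between 4.2e-05 and 0.00672. On this scale the groups were apart for these genes other than Scgb3a1, whose exact permutation p was 0.0571. Reg3g at -0.76 (95% interval from its own values -2.26 to 0.74) and Pigr at -0.05 (-1.52 to 1.43) were not called. Because the scale is that of log2 array signals, a compressed range at the top would enter each of these values, and its part was not tested. With Cbr2 as reference instead, 4 genes were called, a count that leaves out both Cbr2 and Scgb1a1.

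**Figure D2:**
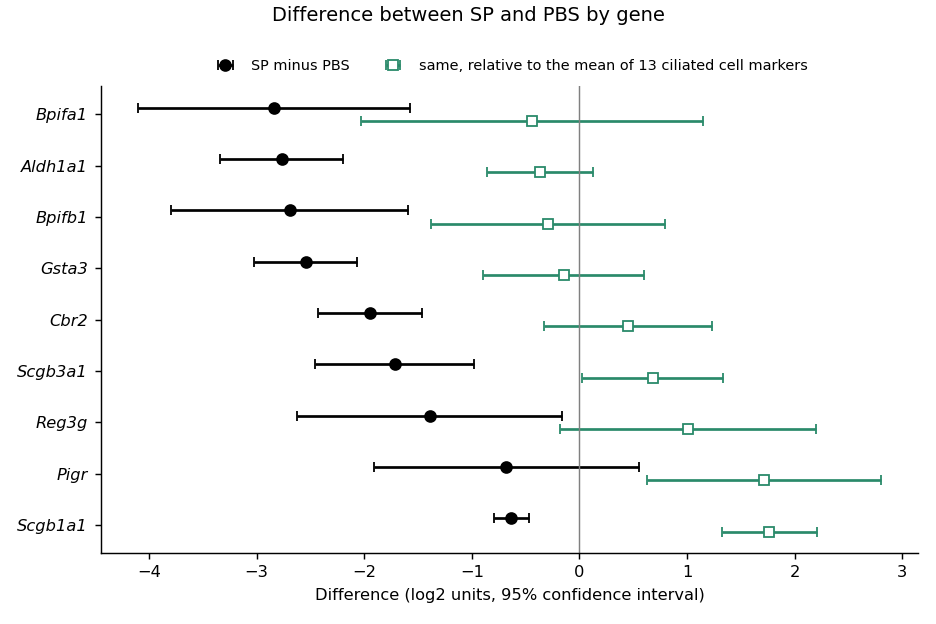
SP minus PBS differences in log2 units (horizontal axis) of the 9 secretory genes as measured (black circles, limma 95% intervals) and relative to the ciliated mean (green squares, 95% intervals from each gene's own values). As measured, Bpifa1 at -2.84 lies furthest to the left and Scgb1a1 at -0.63 nearest to 0, and relative to the ciliated mean Scgb1a1 at 1.76 lies furthest to the right.

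The members also differed in how they varied between arrays of 1 group. PBS replicate 2 had the highest PBS level of all 9 genes, as on 31.9% of all rows, and SP replicate 4 had the highest SP level of 8, as on 23.7%. Other lists shared this in part. PBS replicate 2 was highest for 14 of 19 other club cell genes and 12 of 13 ciliated genes. SP replicate 4 was highest for 14 of 19 other club cell, 11 of 11 general epithelial and 9 of 10 alveolar type 2 genes. It was highest for only 6 of 16 goblet and 1 of 13 ciliated genes. SP replicate 3 had the lowest SP level of 5 genes (33.9% of rows). On PBS replicate 2 the mean of the alveolar type 2 list was also the highest of the PBS arrays at 12.10, and the neutrophil mean the lowest at 12.72. SP replicate 3 had the highest neutrophil mean of the SP arrays, 13.02. Whether the make-up of these samples set the level of the secretory genes was not tested. The range over the PBS arrays was 0.21 log2 units for Scgb1a1, 0.27 for Cbr2, 0.33 for Gsta3 and 0.61 for Aldh1a1, but 1.48 for Reg3g and 1.99 for Pigr. Over the SP arrays the range was 0.09 for Scgb1a1 and more than 1 log2 unit for each of the other 8 genes. Scgb1a1 lay near the top of the array scale, and whether that narrowed its range was not tested.

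**Figure D3:**
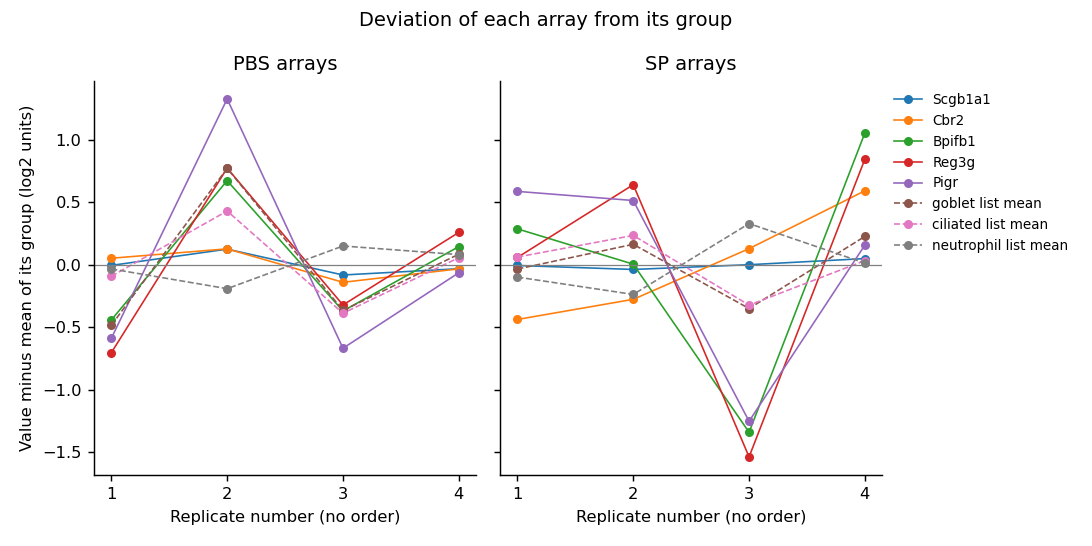
Deviation from the group mean in log2 units (vertical axis) of Scgb1a1, Cbr2, Bpifb1, Reg3g and Pigr (solid lines) and of the goblet, ciliated and neutrophil list means (dashed lines) on each array, where lines join the points of 1 gene or list and replicate numbers (horizontal axis) have no order. Among the PBS arrays the 5 genes are highest on replicate 2, and Pigr, Reg3g and Bpifb1 spread further than Scgb1a1, whose arrays span 0.21 in PBS and 0.09 in SP.

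Other genes of the same cells were counted from lists. Among all rows 22.6% were lower in SP, 11.3% by at least 2-fold, and 21.5% were higher. Of 19 measured club cell genes outside the 9, 16 were lower in SP, each at least 2-fold, and none was higher, with a median of -2.63. Cyp2f2, a cytochrome P450 of club cells that activates inhaled aromatic compounds, fell from 13.14 ± 0.19 to 10.50 ± 0.51 (SD, 6.21-fold, adjusted p = 7.89e-05, limma). Other oxidising enzymes fell too, with differences of -3.03 for Fmo2, -3.39 for Cyp2a5, -2.17 for Cyp4b1 and -3.74 for Aox3, an aldehyde oxidase. The differences were -3.13 for the sulfotransferase gene Sult1d1, -2.08 for the carbonyl reductase gene Dcxr, -2.99 for the tight junction gene Cldn10, -2.63 for Gabrp, which encodes a GABA receptor subunit, and -1.84 for Retnla. Hp, which encodes haptoglobin and is also made by myeloid cells, read 12.60 in PBS against 12.37 in SP, which did not pass the test (adjusted p = 0.172, limma). Scgb1a1, with its difference of -0.63, lay outside the span of the 16 called club cell genes, each of which fell by at least 1 log2 unit.

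Of 16 measured goblet and mucous cell genes, 7 were lower in SP and none higher, with a median of -1.20. The shares of all rows were 22.6% lower and 21.5% higher. The 7 were the mucin gene Muc5b (-2.37, adjusted p = 0.0242, limma), the chloride channel regulator Clca1 (-2.98), the trefoil factor gene Tff2 (-2.67), Lypd2 (-2.97), Gp2 (-2.02) and the membrane mucins Muc1 (-1.58) and Muc4 (-1.94). Muc5b read 10.34, 12.47, 10.13 and 11.09 in PBS and Clca1 6.40, 10.37, 7.90 and 8.77, so that PBS replicate 2 was high for both. Ltf, which encodes lactoferrin and is also a neutrophil granule gene, was not called (-0.45). The PBS arrays spread over a median of 1.04 log2 units in these genes, against 0.78 in the secretory genes and 0.30 over all rows, and PBS replicate 2 was the highest for 13 of the 16.

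Transcription and Notch pathway genes of secretory cells gave 12 of 17 lower and none higher, with a median of -1.31. For all rows the shares were 22.6% lower and 21.5% higher. Foxa1 and Sox2, airway epithelial regulators, differed by -2.61 and -2.60, Elf5 by -2.54, Grhl2 by -2.03, the Notch target Hes1 by -2.17 and the Notch ligand Jag2 by -2.54, each called lower. Notch1 fell by 0.56 (adjusted p = 0.0319, limma), Notch2 was 12.14 in PBS and 12.15 in SP, and Cebpd was 9.21 and 9.25. Notch2 and Cebpd were not called, and both are also used by blood cells.

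**Figure D4:**
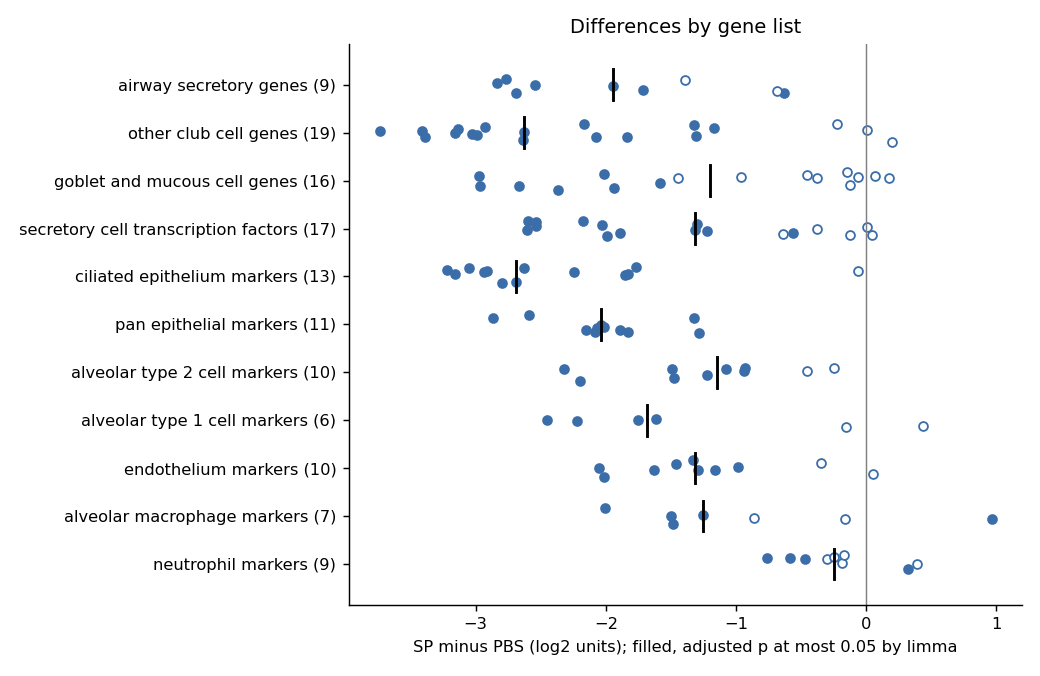
SP minus PBS difference in log2 units (horizontal axis) of every measured gene of 11 lists, 1 point per gene, with the list's median as a vertical bar and filled points for an adjusted p of 0.05 or less (limma). The secretory genes have a median of -1.95, other club cell genes of -2.63 and alveolar type 2 genes of -1.15, and the neutrophil list stands at -0.24.

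Lists of markers of other cells also had negative median differences, though not every gene of them fell. Their counts stand beside 22.6% of all rows lower and 21.5% higher. Lower in SP were 11 of 11 general epithelial genes (median -2.04), 4 of 6 alveolar type 1 genes (-1.68) and 8 of 10 endothelial genes (-1.31, 10.35 to 11.31 and 8.77 to 10.01). Of 7 alveolar macrophage genes 4 were lower and 1 higher (-1.25). Basal cell genes were dim on every array, with a list mean of 5.12 to 5.43 in PBS and 4.88 to 5.001 in SP, and 2 of 6 were lower. Of the 9 neutrophil genes 3 were lower and 1 higher, none by 2-fold (median -0.24). The part of these cells in the differences of the secretory genes was not tested.

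The genes with the pattern most like a member were sought among 6714 genes with a mean of at least 8, by the root mean square distance over the 8 arrays after each gene was set to 0 at its PBS mean. Nearest to Cbr2 were Trf (0.15 log2 units), which encodes transferrin, Pam (0.18), a peptide-amidating enzyme, and Cat (0.19), which encodes catalase. Nearest to Reg3g were the Notch ligand Jag1 (0.37), Usp10 (0.40), a deubiquitinase, and Myo1e (0.40), a myosin. None of the first 3 genes of either was another of the 9.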

How the data were processed

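Gene expression was measured in 8 samples of bead-selected lung neutrophils, 4 PBS and 4 SP, grouped by sample title. Signals were summarised by the authors with RMA (robust multi-array averaging), which includes quantile normalization, so the deposited values are log2 expression, relative within an array. The methods and the labels give the age range differently, and purity was examined by the authors in pneumonia samples only. Symbols came from RefSeq (GRCm38.p6) for 19915 of 24625 rows (80.9%). Genes without a matched row are not analysed here.

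Rows were compared by limma 3.58.1 (R 4.3.3, lmFit and eBayes), two-sided and without covariates. P-values were adjusted by Benjamini-Hochberg over the whole table, with a threshold of 0.05. For relative comparisons a list mean, or Scgb1a1, was subtracted from every row of an array. Intervals from a gene's own 8 values and exact permutation tests over 70 arrangements were added to these after seeing the data. Sequences were searched and tables made with Python 3.11.15. In simulated data with 200 of 24625 rows changed by 2 log2 units, limma recovered 95.5% with 8 false calls, and 0 rows were called without a change.

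The secretory genes, lists, tests and rules were chosen with earlier results of these data known. Named genes were the 10 secretory genes, the 3 brightest genes of each list, genes called with a difference of at least 2 log2 units, and the 3 genes nearest in pattern to Cbr2 and Reg3g. Of the lists of other cell types, counts and ranges are given in place of most names. The counts include 1 gene whose own values are not reported here. Scgb1c1, Scgb1b2, Scgb1b27, Scgb2b2, Aldh1a3, Aldh1b1, Reg3a, Reg3b, Reg3d, Il17rc, Il22ra1, Il17a, Il17f and Il22 were named after their values were seen. Alternatives were arrays centred on the median, another quantile normalization, array weights, a replicate block, the methods' t-test, a robust prior with trend, dim rows left out, 1 row per symbol, other references and leaving out arrays. Same-numbered PBS and SP arrays did not regularly deviate together, with correlations from -0.274 to 0.350, which does not exclude a pairing.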

Additional observations from a re-analysis of the deposited data

Results flagged for a closer look

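Of 48 groups of 4 arrays examined (the 9 secretory genes and 15 list means, in PBS and in SP), 2 held an array far from the others, where chance flags about 1 in 20. The mean of the alveolar type 2 list in PBS was highest in replicate 2 at 12.10, and its gap to the next array was 0.865 of the group's range. The mean of the alveolar macrophage list in PBS was highest in replicate 1 at 9.40, with a gap of 0.882 of the range. None of the 9 secretory genes had such an array in either group, although PBS replicate 2 was the highest PBS array for all 9.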

How the results depend on the processing

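Over the alternatives run, 7 or 8 of the 9 secretory genes were lower in SP and 0 were higher. The eighth was Reg3g, called with a robust prior (adjusted p = 0.0402), array weights (0.0286), another quantile normalization (0.0463), dim rows left out (0.0406) and without SP replicate 4 (0.0436). Deviations of same-numbered arrays correlated at 0.016, 0.030, 0.350 and -0.274, and the value of replicate 3 was the highest of any PBS and SP pair. These correlations neither show nor exclude a pairing by replicate number. With the replicate block, 8 genes were lower and Reg3g had an adjusted p of 0.0267. Genes changed relative to the alveolar type 2 mean numbered 4 to 7 when each array was left out in turn, relative to the ciliated mean 3 to 5, and relative to Scgb1a1 6 throughout. With the median of the alveolar type 2 list as reference 6 changed. With Cbr2 in place of Scgb1a1 the number was 4, which leaves out both of these genes.

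Directions turned where a difference was small. Pigr was 0.18 in SP against PBS without both PBS replicate 2 and SP replicate 3, a pair chosen after seeing the data, and -0.90 to -0.24 when each array was left out in turn. Relative to the ciliated mean, Bpifb1 was 0.045 and Gsta3 0.20 with the list median, Bpifa1 0.049 and Gsta3 0.078 without SP replicate 2, and Bpifb1 0.043 without SP replicate 3 and 0.12 without both arrays. Without SP replicate 4, their lowest values were -0.99 for Bpifa1, -0.64 for Bpifb1 and -0.34 for Gsta3. Relative to the alveolar type 2 genes, Scgb1a1 was -0.0136 and Pigr -0.0625 with the list median, and Reg3g -0.43 without SP replicate 2, 0.12 without SP replicate 3 and 0.25 without both arrays. Relative to Scgb1a1, Pigr was -0.25 without SP replicate 1, 0.35 without PBS replicate 2, 0.37 without SP replicate 3 and 0.77 without both (adjusted p = 0.00542, called higher). The causes were not tested. Signals at the top of the array scale and 4 arrays a group limit the precision.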

Other observations

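Of 18 measured genes of airway defence, 5 were lower and 5 higher in SP, with a median of 0.19. Of all rows, 22.6% were lower and 21.5% higher. Cxcl15, a chemokine of lung epithelium known to draw neutrophils, fell by 1.69 log2 units from 13.38 ± 0.14 (SD, n = 4), and Cxcl17, another mucosal chemokine, fell by 2.29. Ccl20, which attracts lymphocytes and dendritic cells, rose from 5.12 ± 0.12 to 7.66 ± 0.51 (5.80-fold), and Slc26a4, which encodes the anion exchanger pendrin, rose from 5.77 to 7.89 (4.36-fold). Slpi, a protease inhibitor, was 11.75 in PBS and 12.47 in SP and Lcn2, which binds bacterial siderophores, 13.32 and 13.54, and neither was called (adjusted p = 0.0613 and 0.0505, limma).

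IL-17 and IL-22 are cytokines known to induce Reg3g and Pigr in epithelium. Of 11 genes of these cytokines, their receptors and signalling, 4 were lower and 5 higher in SP, with a median of 0.26. Beside these counts, 22.6% of all rows were lower and 21.5% higher. The 5 were 1 receptor gene, Il10rb, and the cytokine genes Il23a, Il17a, Il17f and Il22. Il17ra was 11.18 in PBS and 11.31 in SP, not called, while Il17rc fell by 1.39 and Il22ra1 by 1.41 log2 units. Il10rb, a receptor chain shared with other cytokines and used by blood cells, rose by 1.37, and Il23a, a subunit of IL-23, rose by 3.41 (10.6-fold). Il17a, Il17f and Il22 were dim in both groups, and their rises were small, at 0.27, 0.26 and 0.33.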
